A study of Mus musculus with 48 samples.

Results

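The genes described here seal the epithelium of the lung and clear fluid from its air spaces. They are 9 genes chosen by symbol: the claudins Cldn3, Cldn4 and Cldn18, occludin (Ocln), the junction scaffold Tjp1 (ZO-1), the epithelial sodium channel subunits Scnn1a, Scnn1b and Scnn1g, and the sodium pump subunit Atp1b1. Each matched 1 of the 47561 rows of the expression table, and all 9 passed the filter on low values in every comparison. Gene expression was measured by RNA sequencing in the lungs of 48 mice, with 3 mice in each of 16 groups defined by strain, sex, injection and air. The strains were C3H/HeN (C3H; written C3H/hen in the labels) and C57Bl/6 (C57B), which are inbred. Adult mice of both sexes, bought at 6 to 8 weeks of age, received 1 intraperitoneal injection of saline or of 25 mg/kg of aurothioglucose (ATG), a gold drug known as an inhibitor of thioredoxin reductase, and were then kept for 96 h in room air or in hyperoxia, that is above 95% oxygen. The text on the series names ATG for all mice, so the saline groups rest on the sample labels. The age of 6 to 8 weeks is that of the paper. Age and the substrain of C57Bl/6 are given differently by the study's sources. Each lung gave 1 library of whole tissue, so a lower level of an epithelial transcript cannot be told apart from fewer epithelial cells.

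Tight junctions close the space between neighbouring epithelial cells. Claudins form the strands that decide which ions and how much water pass between the cells, occludin belongs to the same strands, and ZO-1 ties them to the actin cytoskeleton. In the alveolus, sodium enters the cells through the apical epithelial sodium channel (ENaC), a complex of alpha, beta and gamma subunits encoded by Scnn1a, Scnn1b and Scnn1g, and is pumped out at the basolateral side by the Na,K-ATPase, whose beta 1 subunit is encoded by Atp1b1. Water follows the sodium, and oedema fluid is cleared from the air spaces in this way. Cldn18 is the claudin typical of alveolar epithelium, Cldn3 is found mainly in type 2 and airway cells, and Cldn4 is low in the healthy alveolus and known to increase in lung injury.

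The 9 genes lie on autosomes, and coordinates are those of the GENCODE M21 annotation of GRCm38 (mm10), the build to which the reads were mapped. Cldn3 (ENSMUSG00000070473, chr5:134986214-134987472, plus strand) and Cldn4 (ENSMUSG00000047501, chr5:134945119-134946934, minus strand) are single-exon neighbours whose starts are 39280 bases apart. Scnn1b (ENSMUSG00000030873, chr7:121865038-121918514) and Scnn1g (ENSMUSG00000000216, chr7:121734479-121768475) are also neighbours, both on the plus strand, with 130559 bases between their starts. Scnn1a (ENSMUSG00000030340) is at chr6:125320659-125344943, apart from the other channel subunits. Cldn18 (ENSMUSG00000032473) is at chr9:99689461-99717267, Ocln (ENSMUSG00000021638) at chr13:100496507-100552718, Tjp1 (ENSMUSG00000030516) at chr7:65296165-65527781 and Atp1b1 (ENSMUSG00000026576) at chr1:164437109-164458355. At most 0.488% of the 30-base sequences of any of these genes, the value of Cldn3, occurred in transcripts of another gene. Atp1b1 shares 575 exonic bases with Nme7 on the opposite strand, and Cldn3 shares 40 with the antisense gene Wbscr25. How strand was used in counting is not given in the sources used here.

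The proximal promoters of the neighbouring pairs are shown as a description. The 2 neighbours of each pair were not called alike in every hyperoxia comparison, but no test compared them with each other. The part of these sequences in the levels was not tested. Each sequence is from RefSeq on GRCm38.p6 and runs 5′ to 3′ on the strand of the gene, from 250 bases before its start to 50 bases after it. Capitals mark the AP-1 motif TGACTCA and the GC box GGGCGG, each searched on both strands.
Cldn4 (chr5:134946885-134947184, minus strand): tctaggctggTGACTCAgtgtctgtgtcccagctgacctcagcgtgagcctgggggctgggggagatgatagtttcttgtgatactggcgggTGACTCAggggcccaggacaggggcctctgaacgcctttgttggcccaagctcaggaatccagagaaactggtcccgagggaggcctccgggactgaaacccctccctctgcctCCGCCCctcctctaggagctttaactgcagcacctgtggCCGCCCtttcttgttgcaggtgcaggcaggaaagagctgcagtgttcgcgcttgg
Cldn3 (chr5:134985964-134986263, plus strand): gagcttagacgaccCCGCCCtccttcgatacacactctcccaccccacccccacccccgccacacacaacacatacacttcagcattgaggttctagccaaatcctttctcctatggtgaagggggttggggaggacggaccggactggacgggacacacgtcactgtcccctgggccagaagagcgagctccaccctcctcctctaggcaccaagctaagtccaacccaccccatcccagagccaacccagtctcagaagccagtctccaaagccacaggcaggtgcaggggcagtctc
Scnn1g (chr7:121734229-121734528, plus strand): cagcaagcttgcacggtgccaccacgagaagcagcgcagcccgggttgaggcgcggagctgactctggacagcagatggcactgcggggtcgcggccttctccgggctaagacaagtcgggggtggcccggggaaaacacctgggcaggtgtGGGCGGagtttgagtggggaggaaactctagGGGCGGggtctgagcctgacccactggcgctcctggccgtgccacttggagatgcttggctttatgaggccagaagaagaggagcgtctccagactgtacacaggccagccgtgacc
Scnn1b (chr7:121864788-121865087, plus strand): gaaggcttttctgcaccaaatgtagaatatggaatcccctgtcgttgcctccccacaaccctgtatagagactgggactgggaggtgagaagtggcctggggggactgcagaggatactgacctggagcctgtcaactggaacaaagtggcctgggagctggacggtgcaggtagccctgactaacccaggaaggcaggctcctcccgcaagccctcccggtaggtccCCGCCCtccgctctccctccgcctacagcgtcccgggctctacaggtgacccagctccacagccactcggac
The window of Cldn4 holds the AP-1 motif 2 times, with first bases at -240 and -158 from the start, and that of Cldn3 does not hold it. AP-1 is the dimer of Fos and Jun family proteins that binds this motif. Among the 32851 promoters of the same length, 5.20% hold the AP-1 motif, 35.7% the GC box and 13.6% the TATA box TATAAA, which occurs in none of the 10 windows found for 8 of the 9 genes. Of these 10 windows, the AP-1 motif occurs in that of Cldn4 and in no other. A GC box occurs in the windows of Cldn3, Cldn4, Ocln, Tjp1, Scnn1b, Scnn1g and Atp1b1, and not in either window of Cldn18. Scnn1a is not in the table of promoters used.

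In saline mice in room air the 9 genes spanned nearly 2 orders of magnitude in FPKM, that is sequenced fragments divided by transcript length and by library size, a level per length that allows genes to be compared. Cldn18 was the highest, with 309.6 ± 65.3 FPKM (SD, n = 12), and exceeded the next gene, Cldn3, in 12 of 12 mice. Cldn3 had 166.4 ± 24.5 and Atp1b1 153.2 ± 48.5, and this pair did not differ beyond its spread, as Cldn3 was above Atp1b1 in 7 of 12 mice. Scnn1a followed with 83.6 ± 31.8, then Tjp1 with 57.4 ± 10.8, Scnn1g with 48.0 ± 6.11, Scnn1b with 39.6 ± 8.52 and Ocln with 24.3 ± 4.33. The order of Scnn1a over Tjp1, and of Scnn1g over Scnn1b, was seen in 10 of 12 mice. Cldn4 was the lowest gene, at 4.30 ± 2.34, below Ocln in 12 of 12 mice. In saline mice in hyperoxia the order differed between the strains. In C3H, Cldn18 had 298 ± 109 FPKM (SD, n = 6) and Atp1b1 223 ± 12.2, Cldn3 145 ± 33.6 and Scnn1a 138 ± 33.6, and Cldn4 (15.5 ± 9.12) and Ocln (19.4 ± 5.10) were the lowest, with ranges that overlapped. In C57B, Atp1b1 had 275 ± 62.5 FPKM, Scnn1a 222 ± 46.9, Cldn18 208 ± 46.5 and Cldn3 179 ± 38.4, and Ocln was the lowest, at 19.0 ± 1.24, with Cldn4 at 72.1 ± 41.6. The levels in every mouse are plotted by strain, injection and air.

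**Figure D1:**
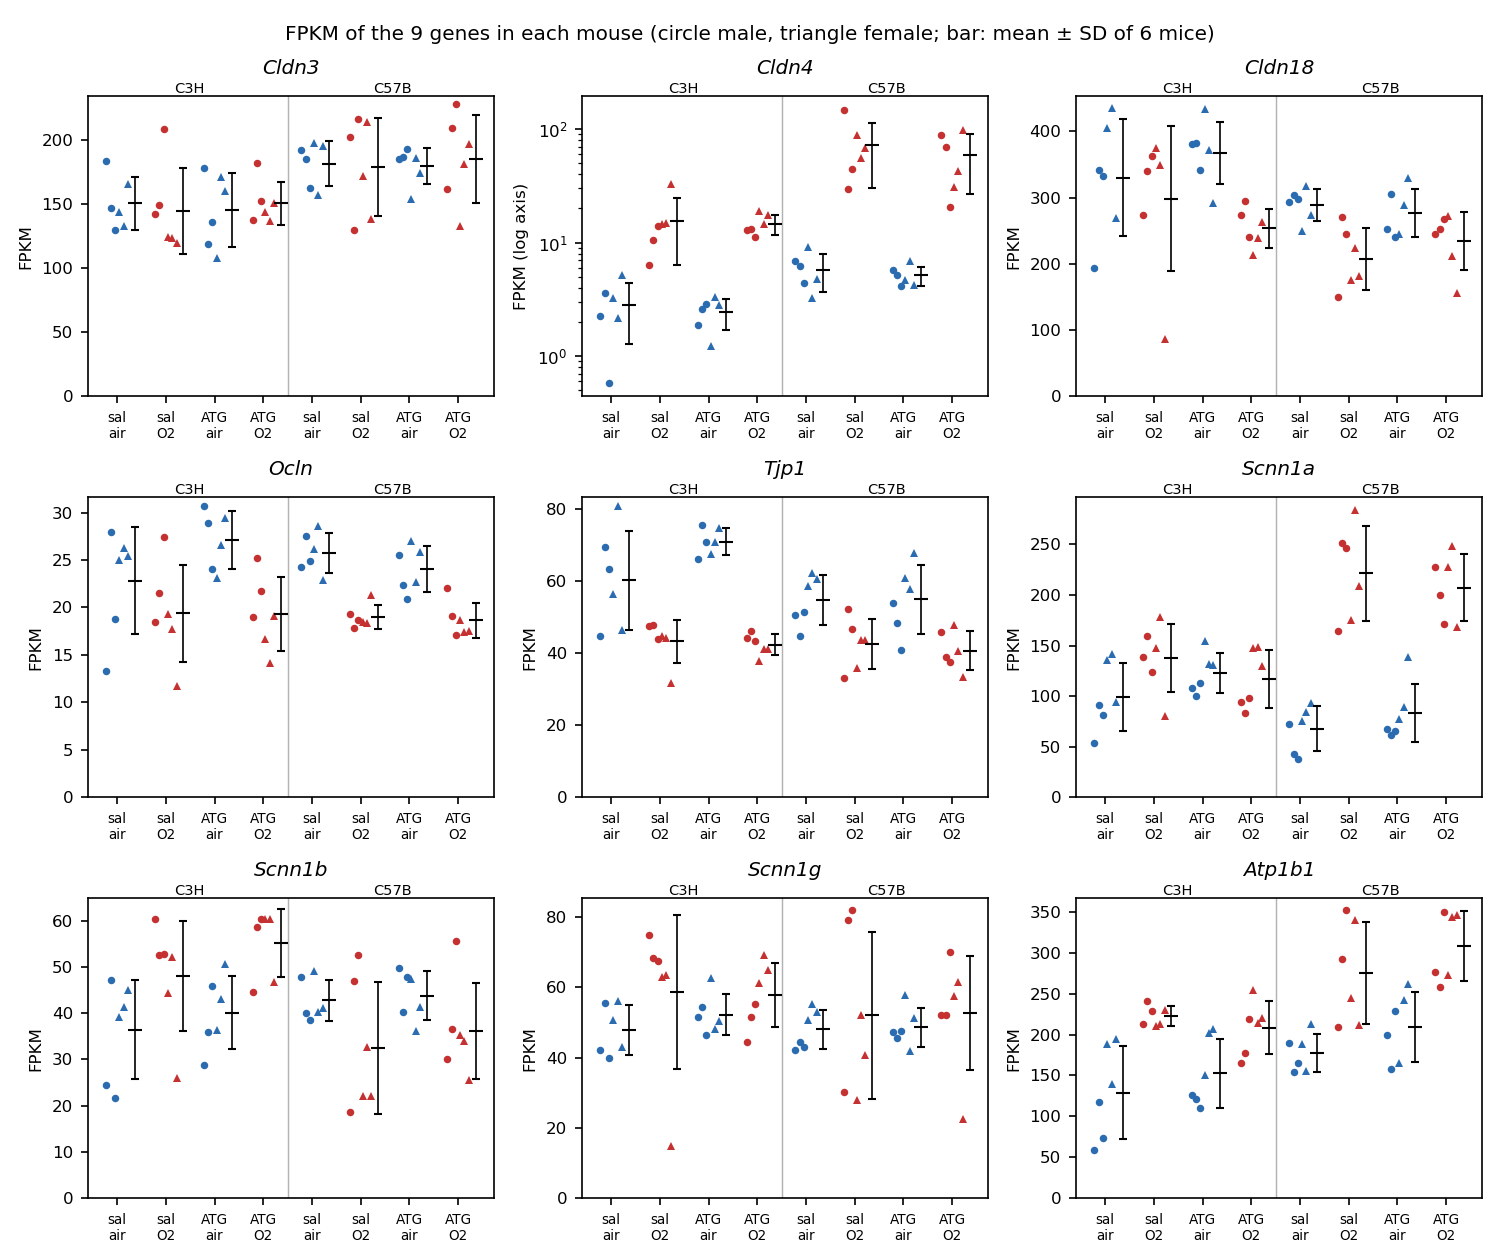
Each panel gives FPKM of 1 gene on the y axis (logarithmic for Cldn4, linear from 0 for the others) for 6 mice in each combination of strain (C3H left, C57B right), injection (sal, saline; ATG) and air (air, room air, blue; O2, hyperoxia, red). Circles are males, triangles females, and the bar is the mean ± SD of the 6 mice. Cldn4 is higher in hyperoxia in all 4 pairs of groups without overlap, and Scnn1a is higher without overlap in both C57B pairs.

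Some libraries stood apart. Log values of the 3 C3H males given saline in room air (mice 1 to 3) correlated less with each other than those of most groups (mean r with the other mice of the group 0.943 to 0.955), and mice 1 and 3 were low in Atp1b1, with 58.9 and 73.8 FPKM against 118 in mouse 2. Mouse 19 (C57B male, saline, hyperoxia; mean r = 0.946) and mouse 33 (C3H female, saline, hyperoxia; mean r = 0.949) were low in Cldn18 and Tjp1 and had the highest Cldn4 of their strain, 147 and 32.9 FPKM. Differences without mice 1, 3, 19 and 33 are given beside some results. This choice was made after these values, those of the members among them, were seen. It leaves mouse 2 as the only C3H male given saline in room air, so no p-value is given with it. Mouse 2 had the lowest mean r of its group (0.943), and mouse 3 the highest (0.955). Summed over all genes, FPKM came to 510933 to 748290 per mouse, and the club cell transcript Scgb1a1 took a median of 18.1% of it in room air and 4.61% in hyperoxia. The part of this shift in the results was not tested. The median difference over all genes was within 0.1 of 0 in most comparisons, and was 0.10 for hyperoxia in C3H saline mice, 0.11 in C3H ATG mice, 0.15 for the strain difference and 0.14 for the sex difference of the hyperoxia effect in saline mice, and -0.12 for sex in room air.

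Hyperoxia was compared with room air in the 24 saline mice, over strain and sex, with limma on log2(FPKM + 1) and Benjamini-Hochberg adjusted p-values over 16321 genes. Differences of this kind are on the log2(FPKM + 1) scale, which understates changes of low genes. Cldn4, Scnn1a and Atp1b1 rose and Tjp1 and Ocln fell at an adjusted p under 0.05, whereas Cldn3, Cldn18, Scnn1b and Scnn1g did not pass. Of the 9 genes, 3 were thus called higher and 2 lower. The response of the lung was wide, with 31.8% of all genes tested called higher and 28.3% called lower, and the share of members called was near this background. In the 24 ATG mice, none of them shared with the saline comparison, the same 5 genes passed in the same directions. Cldn18 passed there as well, at -0.39 ± 0.08, against -0.37 ± 0.19 in saline mice. The background there was 35.8% higher and 26.0% lower of 16206 genes.

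Cldn4 had the largest difference of the 9 genes. In C3H saline mice it was 0.585 to 5.14 FPKM in room air (median 2.74) and 6.33 to 32.9 in hyperoxia (median 14.3). In C57B saline mice it was 3.25 to 9.16 FPKM in room air (median 5.47) and 29.8 to 147 in hyperoxia (median 61.7). In each strain, every mouse in hyperoxia was above every mouse in room air, and the groups touched only across strains, where the lowest C3H male in hyperoxia (6.33) was below the highest C57B female in room air (9.16). The difference was 2.69 ± 0.25 (SE; adjusted p = 1.4e-08, limma), a ratio of 6.45 in FPKM + 1. In ATG mice it was 2.64 ± 0.20 (adjusted p = 6.5e-10), with 1.24 to 6.82 FPKM in room air against 11.2 to 98.7 in hyperoxia, groups that did not overlap. No other member had 12 mice against 12 without overlap, and none did among saline mice, where 7.74% of all genes were without overlap, or 12.9% in ATG mice. Its neighbour Cldn3 was not called. Cldn3 was 129.9 to 198 FPKM in room air and 120 to 217 in hyperoxia in saline mice, overlapping throughout, with a difference of -0.06 ± 0.10 and a 95% confidence interval of -0.26 to 0.14. In ATG mice the interval was -0.14 to 0.23. After quantile normalization Cldn3 was called lower in both arms (-0.28, adjusted p = 0.0186, and -0.20, adjusted p = 0.0458; limma), so its direction in ATG mice depended on the scaling. The ratio of Cldn4 to Cldn3 within a mouse had a median of 0.0302 in C57B saline mice in room air and 0.375 in hyperoxia, and in C3H of 0.0194 and 0.0938, so the 2 levels stayed apart but came closer.

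Over the strains together, Cldn18, Ocln and Tjp1 were on the lower side in hyperoxia. In C3H saline mice, however, the median of Cldn18 was 338 FPKM in room air and 345 in hyperoxia. Tjp1 was 44.6 to 80.6 FPKM in saline mice in room air (median 57.4) and 31.6 to 52.3 in hyperoxia (median 44.0), and it fell by 0.41 on the log2 scale (SE 0.10, adjusted p = 0.0014, limma). In ATG mice it fell by 0.57 (SE 0.06, adjusted p = 5.2e-08), from 40.7 to 75.4 FPKM to 33.2 to 47.8. Ocln was 13.3 to 28.6 FPKM in saline mice in room air (median 25.2) and 11.8 to 27.4 in hyperoxia (median 18.6). It fell by 0.32 (SE 0.10, adjusted p = 0.0097), and by 0.42 in ATG mice (SE 0.07, adjusted p = 1.8e-05). The groups of both genes overlapped in each of these comparisons. Cldn18 was 194 to 435 FPKM in saline mice in room air and 86.9 to 374 in hyperoxia, and its difference of -0.37 ± 0.19 did not pass (adjusted p = 0.098). It passed on scaling by median ratios (-0.43, adjusted p = 0.044), after quantile normalization (-0.59, adjusted p = 0.0133), in the fit of all 48 mice (adjusted p = 0.0342) and without mouse 31 or mouse 32, the 2 high C3H females in hyperoxia (adjusted p = 0.034 and 0.0445). In ATG mice Cldn18 fell by 0.39 (SE 0.08, adjusted p = 0.00045), from 240 to 434 FPKM to 157 to 295.

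Among the sodium transport genes, Atp1b1 rose in both arms. It was 58.9 to 213 FPKM in saline mice in room air (median 160) and 209 to 352 in hyperoxia (median 229), so that the groups shared only the range from 209 to 213. The difference was 0.76 ± 0.11 (adjusted p = 7.7e-06, limma), and 0.52 ± 0.09 in ATG mice (adjusted p = 3.7e-05). Nme7, the gene on its opposite strand, had a difference of 0.10 ± 0.10 in saline mice (adjusted p = 0.45). Scnn1a was 38.1 to 141 FPKM in saline mice in room air (median 82.7) and 80.4 to 284 in hyperoxia (median 170). It rose by 1.12 ± 0.14 (adjusted p = 1.2e-06) and by 0.63 ± 0.08 in ATG mice (adjusted p = 1.7e-06), and both averages join strains that differ, as given next. The beta and gamma subunits did not pass over the strains together. Scnn1b differed by -0.04 ± 0.16 (95% confidence interval -0.37 to 0.28) and Scnn1g by 0.07 ± 0.20 (-0.34 to 0.49) in saline mice. The value of Scnn1g rested on few mice: without mice 1, 3, 19 and 33 its difference in saline mice was 0.28. In ATG mice it was 0.09 ± 0.12 (adjusted p = 0.55, limma). There it was 0.20 without mouse 48 (adjusted p = 0.0153), a C57B female in hyperoxia with 22.5 FPKM.

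The effect of hyperoxia was then compared between the strains, since both were exposed in the same way. Scnn1a passed in C57B and not in C3H. In C57B saline mice it was 38.1, 43.0 and 72.1 FPKM in the males and 75.1, 84.5 and 93.4 in the females in room air, and 164, 246 and 252 in the males and 175, 209 and 284 in the females in hyperoxia. In C3H saline mice it was 53.5, 81.0 and 91.0 FPKM in the males and 93.9, 136 and 141 in the females in room air, and 124, 139 and 160 in the males and 80.4, 147 and 178 in the females in hyperoxia. The C57B groups did not overlap and the C3H groups did. The difference was 1.74 ± 0.20 in C57B (adjusted p = 5.1e-07, limma) and 0.50 ± 0.20 in C3H (adjusted p = 0.057). The difference between the strains was itself past the threshold, at -1.24 ± 0.29 for C3H minus C57B (adjusted p = 0.0089), and stayed past it with any 1 mouse left out (-1.38 to -1.08). In C3H alone the difference passed in a fit of all 48 mice (adjusted p = 0.0179) and without mouse 2, 13, 19 or 33 (adjusted p = 0.0352, 0.0432, 0.0499 and 0.00932).

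ATG mice gave a second measurement of this contrast, in a comparison added after the saline values were seen. In C57B, Scnn1a was 61.8 to 139 FPKM in room air (median 72.2) and 169 to 248.6 in hyperoxia (median 214), again without overlap, with a difference of 1.35 ± 0.12 (adjusted p = 8.6e-09, limma). In C3H it was 100.2 to 155 FPKM in room air (median 122) and 83.7 to 148 in hyperoxia (median 114), groups that overlapped nearly throughout, with a difference of -0.09 ± 0.12 (95% confidence interval -0.34 to 0.15). After quantile normalization this was a fall (-0.32, adjusted p = 0.0482). The difference between the strains was -1.44 ± 0.17 (adjusted p = 1.7e-05) and was -1.56 to -1.36 with any 1 mouse left out. Background calls for this difference were 11.5% of all genes in saline mice and 13.3% in ATG mice, and of the 9 members 1 and 2 were called. The second in ATG mice was Scnn1b.

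Scnn1b had a strain difference of the opposite sign. In C3H ATG mice it was 28.8 to 50.5 FPKM in room air (median 39.7) and 44.5 to 60.4 in hyperoxia (median 59.5), and it rose by 0.46 ± 0.15 (adjusted p = 0.012, limma). In C57B ATG mice it was 36.2 to 49.7 FPKM in room air (median 44.4) and 25.6 to 55.7 in hyperoxia (median 34.6), a difference of -0.30 ± 0.15 that did not pass (adjusted p = 0.086). It passed after quantile normalization (-0.48, adjusted p = 0.00737), on scaling by median ratios (-0.36, adjusted p = 0.0335) and without mouse 24 (-0.42, adjusted p = 0.0122). The difference between the strains was 0.76 ± 0.21 (adjusted p = 0.018) and was 0.67 to 0.88 with any 1 mouse left out. It did not pass in a fit of all 48 mice together (adjusted p = 0.0703), and the rise in C3H did not pass after scaling by median ratios (0.33, adjusted p = 0.066) or quantile normalization (0.28, adjusted p = 0.11). In saline mice the values were 0.40 ± 0.22 in C3H (adjusted p = 0.17) and -0.49 ± 0.22 in C57B (adjusted p = 0.069), with a difference of 0.89 ± 0.31 (adjusted p = 0.070). That difference passed without mouse 2, 21 or 33 (adjusted p = 0.0171, 0.0323 and 0.0285), and the C57B value without mouse 2, 20, 21 or 44 (adjusted p = 0.0436, 0.0429, 0.0245 and 0.0437). In the fit of all 48 mice both passed (adjusted p = 0.0229 and 0.031). The C57B value also passed after quantile normalization (-0.60, adjusted p = 0.0205) and on scaling by median ratios (-0.46, adjusted p = 0.0497). Without mice 1, 3, 19 and 33 the C57B value was -0.26. The C3H value was 0.57 without mouse 2 (adjusted p = 0.0374). Scnn1g had no such difference past the threshold, at 0.15 ± 0.40 in saline mice (95% confidence interval -0.68 to 0.98) and 0.09 ± 0.24 in ATG mice (-0.41 to 0.60).

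The levels of the channel subunits were also set against each other within each mouse. The ratio of Scnn1b to Scnn1a within a mouse was 0.440 to 1.01 in C57B saline mice in room air (median 0.658) and 0.106 to 0.214 in hyperoxia (median 0.121). In C3H saline mice it was 0.267 to 0.518 in room air (median 0.376) and 0.293 to 0.436 in hyperoxia (median 0.327). The C57B ranges did not overlap and the C3H ranges did. The ratio of Scnn1g to Scnn1a had medians of 0.665 and 0.190 in C57B and of 0.476 and 0.428 in C3H. In C57B ATG mice the ratio of Scnn1b to Scnn1a was 0.298 to 0.740 in room air (median 0.631) and 0.132 to 0.326 in hyperoxia (median 0.153), ranges that overlapped, and in C3H ATG mice the medians were 0.343 and 0.441. These ratios are given as a description, with no test of their own.

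**Figure D2:**
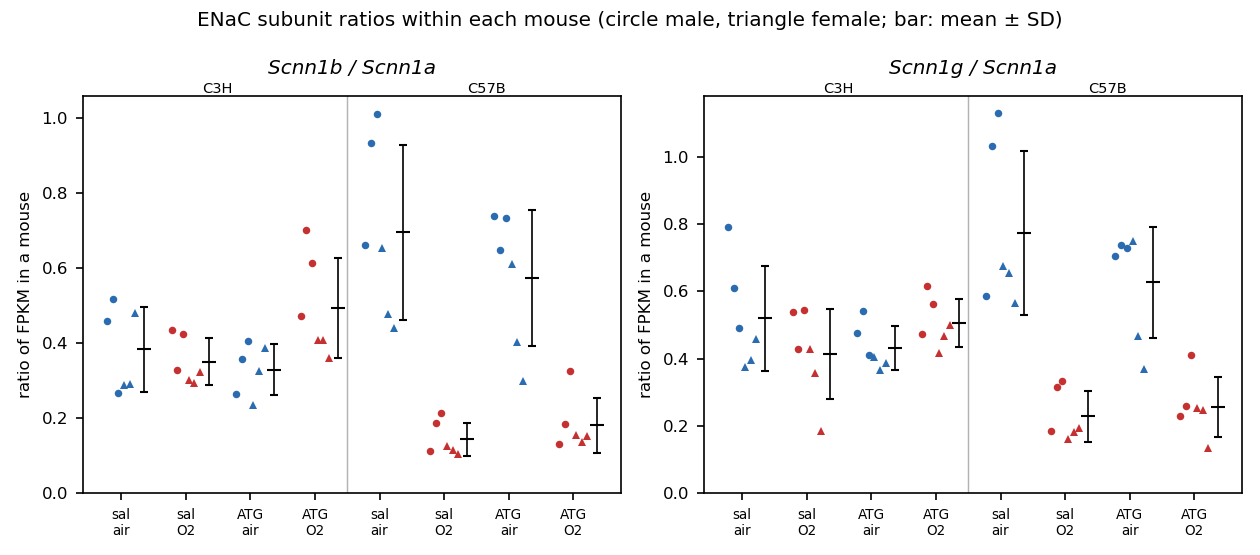
The y axis is the ratio of FPKM of Scnn1b to Scnn1a (left) and of Scnn1g to Scnn1a (right) in each mouse, by strain, injection (sal, saline; ATG) and air (air, room air, blue; O2, hyperoxia, red), with the mean ± SD of 6 mice as a bar. Both ratios have lower medians in hyperoxia in C57B, where the median of Scnn1b to Scnn1a goes from 0.658 to 0.121 in saline mice, and overlap between air conditions in C3H saline mice.

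The strain difference passed the threshold in none of the other 7 members in either arm, although that of Cldn4 was as large as that of Scnn1a in saline mice. Within the strains, Cldn4 rose in all 4 comparisons, by 2.07 ± 0.35 in C3H and 3.31 ± 0.35 in C57B saline mice (adjusted p = 0.00011 and 1.4e-07, limma) and by 2.19 ± 0.29 and 3.09 ± 0.29 in ATG mice (adjusted p = 3.0e-06 and 2.0e-08). The difference between strains in this rise was -1.24 ± 0.49 in saline mice (adjusted p = 0.10) and -0.90 ± 0.41 in ATG mice (adjusted p = 0.15). Both calls changed with 1 mouse left out: without mouse 20 the first was -1.48 (adjusted p = 0.0499), and without mouse 24 the second was -1.21 (adjusted p = 0.014). Without mice 1, 3, 19 and 33 the saline value was -1.43. Atp1b1 rose in all 4 comparisons as well, by 0.91 ± 0.16 in C3H and 0.61 ± 0.16 in C57B saline mice and by 0.47 ± 0.13 and 0.57 ± 0.13 in ATG mice (adjusted p = 0.00015, 0.0029, 0.0039 and 0.00072). Its rise in C57B saline mice and in both strains of ATG mice did not pass after quantile normalization (adjusted p = 0.105, 0.194 and 0.0846). Tjp1 fell in all 4, by 0.45 (SE 0.14) and 0.36 (SE 0.14) in C3H and C57B saline mice and by 0.73 (SE 0.08) and 0.42 (SE 0.08) in ATG mice (adjusted p = 0.015, 0.032, 5.6e-07 and 0.00029). The fall in C57B saline mice was not called without mouse 13, 15, 19, 38, 39 or 43 (adjusted p = 0.0508 to 0.103), nor that in C3H saline mice without mouse 26 (adjusted p = 0.0521). Ocln fell in C57B saline mice by 0.42 (SE 0.14, adjusted p = 0.018) and in C3H and C57B ATG mice by 0.48 (SE 0.09, adjusted p = 0.00027) and 0.35 (SE 0.09, adjusted p = 0.0037). In C3H saline mice it had a difference of -0.22 ± 0.14 (adjusted p = 0.23). This passed after quantile normalization (-0.38, adjusted p = 0.0223), on scaling by median ratios (-0.38, adjusted p = 0.025) and without mouse 1 (-0.35, adjusted p = 0.0414). Without mice 1, 3, 19 and 33 it was -0.38. In C3H saline mice the difference of Cldn18 was -0.24 ± 0.27 (adjusted p = 0.52, limma). Its sign changed with the mouse left out, from -0.42 to 0.10. Cldn18 fell in C3H ATG mice by 0.53 (SE 0.12, adjusted p = 0.001), and in C57B its differences of -0.50 ± 0.27 in saline mice and -0.25 ± 0.12 in ATG mice did not pass (adjusted p = 0.12 and 0.080). The first passed after quantile normalization (-0.75, adjusted p = 0.0278) and without mouse 33 (adjusted p = 0.0127), and was -0.37 without mice 1, 3, 19 and 33. The second passed after quantile normalization (-0.50, adjusted p = 0.003), on scaling by median ratios (-0.32, adjusted p = 0.0279) and without mouse 40 or 46 (adjusted p = 0.0432 and 0.013). The strain difference of Tjp1 in ATG mice, -0.31 ± 0.12 (adjusted p = 0.087), passed on scaling by median ratios (-0.39, adjusted p = 0.0339) and without mouse 48 (-0.38, adjusted p = 0.0244).

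**Figure D3:**
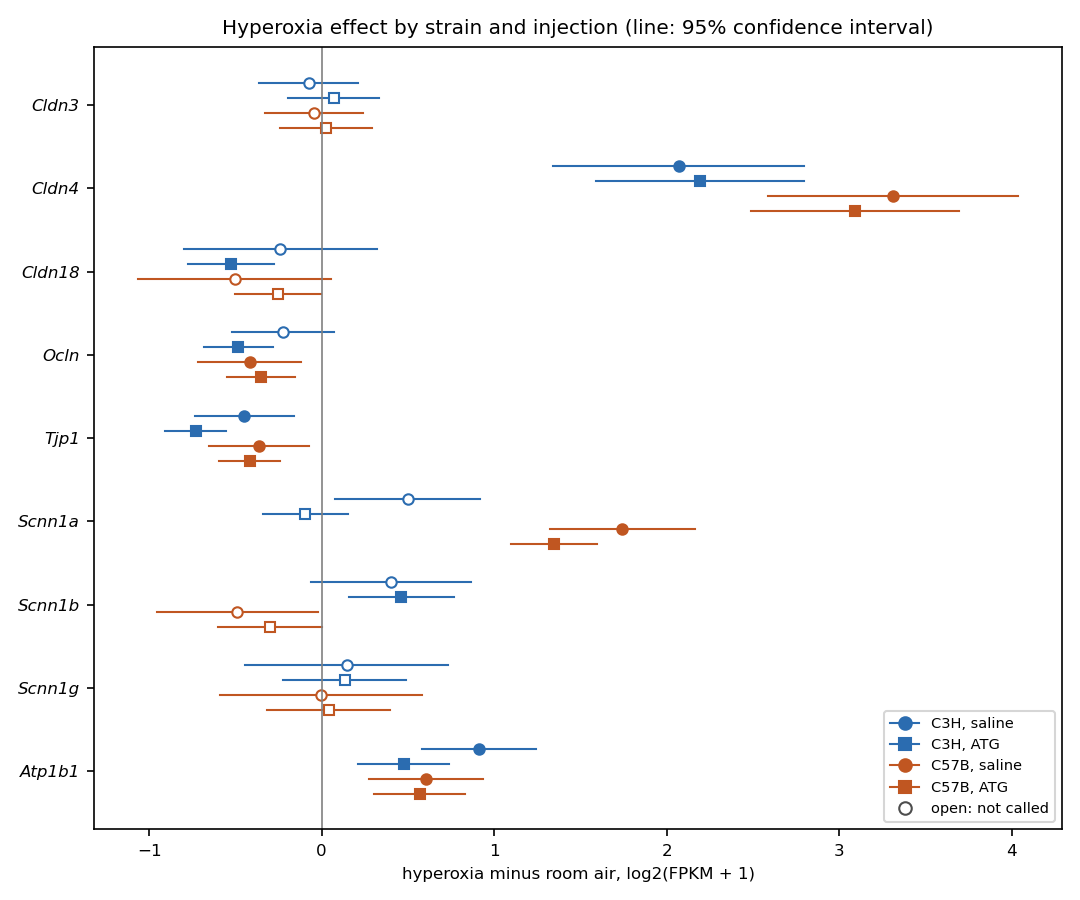
The x axis is hyperoxia minus room air on the log2(FPKM + 1) scale, for each gene and for C3H (blue) and C57B (orange), saline (circles) and ATG mice (squares). Lines are 95% confidence intervals, filled symbols passed an adjusted p of 0.05 and open symbols did not. Scnn1a sits at 1.74 and 1.35 in C57B against 0.50 and -0.09 in C3H, and Cldn4 is to the right of all others.

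The counts of calls have to be read against wide backgrounds. In C3H saline mice 3 of the 9 members were called, against 37.8% of all genes, and in C57B saline mice 5, against 55.5%. In ATG mice 6 were called in C3H, against 47.9%, and 5 in C57B, against 56.2%. Groups of 6 against 6 without overlap were found for Cldn4 in all 4 comparisons. Atp1b1 was without overlap in C3H saline mice, where 14.3% of all genes were, and Scnn1a and Ocln in C57B saline mice, where 32.4% were. Tjp1 was without overlap in C3H ATG mice (background 25.4%) and Scnn1a in C57B ATG mice (background 32.4%). Ocln in C57B saline mice was 22.8 to 28.6 FPKM in room air and 17.8 to 21.3 in hyperoxia.

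Sex did not change the effect of hyperoxia past the threshold in any of the 9 genes, where 0.0368% of all genes were called, although 4 had an unadjusted p under 0.05. The values for males minus females were positive for 8 of them and negative for Cldn4, where the median over all genes was also positive (0.14). Scnn1g had 0.90 ± 0.40 (adjusted p = 0.25, limma), Scnn1a 0.80 ± 0.29 (adjusted p = 0.18) and Atp1b1 0.69 ± 0.22 (adjusted p = 0.17). The value of Atp1b1 passed without mouse 2 or mouse 19 (adjusted p = 0.0226 and 0.0384). Scnn1b, at 0.76 ± 0.31 (adjusted p = 0.22), passed without mouse 19 (adjusted p = 0.0326). In saline mice in room air, males minus females gave -0.74 ± 0.18 for Scnn1a (adjusted p = 0.079) and -0.61 ± 0.16 for Atp1b1 (adjusted p = 0.096), and 0 of 9 members were called (2 at an unadjusted p under 0.05) against 0.669% of all genes. Without mouse 2 all 3 channel subunits, Ocln and Atp1b1 were called lower in males (adjusted p = 0.0146 for Scnn1a), which leaves mice 1 and 3 as the C3H males. Strain in room air called 1 of 9 members, against 11.8% of all genes. Atp1b1 was 58.9 to 195 FPKM in C3H saline mice and 154 to 213 in C57B saline mice, ranges that overlapped, and C3H minus C57B was -0.58 ± 0.16 (adjusted p = 0.039). In the same comparison 6 of 8 alveolar type 2 markers were lower in C3H (median -0.80), 5 of 7 type 1 markers were higher (median 0.54) and 4 of 4 neutrophil markers were lower (median -1.08), and their part in the result was not tested. The call on Atp1b1 was lost without any 1 of mice 1, 3, 13, 14, 15, 25, 26, 37 or 39 (adjusted p = 0.0595 to 0.0997). Without mice 1, 3, 19 and 33 its difference was -0.30. Scnn1a in C3H minus C57B was 0.55 ± 0.18 (adjusted p = 0.075). It passed without mouse 1, 13 or 27 (adjusted p = 0.0305, 0.0228 and 0.0467), after scaling by median ratios (0.66, adjusted p = 0.0259) and in the fit of all 48 mice (adjusted p = 0.0222). Without mouse 2, Cldn4 (-1.05, adjusted p = 0.0193), Ocln (-0.33, adjusted p = 0.0352) and Scnn1b (-0.44, adjusted p = 0.00619) were called lower in C3H. Cldn3 was called lower in C3H without mouse 1 (-0.34, adjusted p = 0.0477).

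ATG against saline called none of the 9 genes with limma, and at an unadjusted p under 0.05 there were 2 in room air, 0 in hyperoxia and 1 for the difference of these effects. In room air 0.0185% of all genes were called, and the differences of the members, ATG minus saline, lay between -0.08 for Cldn4 and 0.34 ± 0.12 for Scnn1a (adjusted p = 0.63). In hyperoxia 5.47% were called, and the members lay between -0.16 ± 0.12 for Scnn1a (adjusted p = 0.47) and 0.22 ± 0.15 for Scnn1b (adjusted p = 0.43). The difference between these 2 effects called 2.77% of all genes. Its largest value among the members was that of Scnn1a, -0.49 ± 0.17 (adjusted p = 0.10), which passed without mouse 13 or mouse 33 (adjusted p = 0.0498 and 0.0366). For Cldn4 the interval of this difference was -0.73 to 0.63, and for Atp1b1 it was -0.54 to 0.06.

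Related genes were taken from 5 lists and compared between hyperoxia and room air in the same fits. Over all genes, 31.8% were called higher and 28.3% lower in saline mice, and 35.8% and 26.0% in ATG mice. Of 27 other tight junction genes tested, 8 rose and 9 fell in saline mice (median difference -0.05, against 0.01 over all genes), and 10 rose and 12 fell in ATG mice (median -0.20, against 0.06). Prkci, the polarity kinase aPKC iota, rose by 1.49 ± 0.10 (adjusted p = 1.4e-10, limma), from 28.4 to 43.3 FPKM to 70.6 to 132.5. Cldn12 rose by 0.87 ± 0.11, whereas Cldn10, Cldn15 and Cldn23 fell by 1.35 (SE 0.15), 1.06 (SE 0.22) and 0.93 (SE 0.11). Cldn7, a claudin of many epithelia, had a difference of 0.04 ± 0.08 in saline mice and rose by 0.33 ± 0.09 in ATG mice (adjusted p = 0.0041), and Cldn5, the main claudin of endothelium, did not pass in either (-0.04 ± 0.10 and -0.07 ± 0.09). Of 10 adherens junction genes, 3 rose and 3 fell in each arm. The nectins Pvrl3 and Pvrl1 fell by 0.61 (SE 0.07) and 0.51 (SE 0.11), and Pvrl2 and the afadin gene Mllt4 rose by 0.32 ± 0.09 and 0.46 ± 0.08. E-cadherin (Cdh1) did not pass, at 0.02 ± 0.06 and -0.04 ± 0.06.

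Among 10 other subunits and regulators of the sodium pump, 2 rose and 6 fell in saline mice and 2 rose and 5 fell in ATG mice (medians -0.31 and -0.35). The shares over all genes, for this and the next list, were 31.8% higher and 28.3% lower in saline mice. In ATG mice they were 35.8% and 26.0%. The FXYD protein Fxyd1, known from heart and skeletal muscle, fell by 1.68 (SE 0.16; adjusted p = 1.8e-08, limma), and by 1.46 (SE 0.14) in ATG mice. Beside this fall, 3 of 4 cardiac muscle markers fell in saline mice over the strains together, none of them at 0 in all mice. By strain, 0 of 4 fell in C3H and 2 of 4 in C57B saline mice. Their summed level was 16.0 to 559 FPKM in room air and 21.6 to 70.8 in hyperoxia in C3H saline mice, and 24.4 to 152 and 7.16 to 22.8 in C57B saline mice. The part of heart or vessel muscle in the fall of Fxyd1 was not tested. Of 19 ENaC regulators, 8 rose and 6 fell in saline mice and 8 rose and 8 fell in ATG mice. Sgk1, the kinase that keeps ENaC at the cell surface, rose by 1.24 ± 0.10 (adjusted p = 1.5e-09) and 0.93 ± 0.09, from 45.6 to 97.2 FPKM in saline mice in room air to 128 to 216 in hyperoxia, without overlap. The proteases Furin and St14 (matriptase), which can cleave channel subunits, rose by 1.01 ± 0.11 and 0.73 ± 0.09, and the ubiquitin ligase Nedd4l, which removes ENaC from the surface, rose by 0.32 ± 0.08. The mineralocorticoid receptor gene Nr3c2, the glucocorticoid receptor gene Nr3c1 and Hsd11b2, which inactivates glucocorticoids, fell by 0.69 (SE 0.14), 0.62 (SE 0.08) and 0.72 (SE 0.14).

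Of 10 water and chloride transport genes, 1 rose and 4 fell in saline mice and 1 rose and 2 fell in ATG mice. The shares over all genes were 31.8% higher and 28.3% lower in saline mice, and 35.8% and 26.0% in ATG mice. By strain, 1 rose and 0 fell in C3H saline mice, and 0 rose and 5 fell in C57B saline mice. In ATG mice 2 rose and 1 fell in C3H, and 2 rose and 4 fell in C57B. Calls over all genes, in either direction, were 37.8% in C3H and 55.5% in C57B saline mice. In ATG mice they were 47.9% and 56.2%. The strain difference in saline mice was called for 3 of the 10, against 11.5% of all genes. The chloride cotransporter gene Slc12a2 rose by 0.41 ± 0.08, and Slc26a9, a chloride channel gene, fell by 0.90 (SE 0.15). The endothelial water channel Aqp1 fell by 0.63 (SE 0.12), and by 1.12 (SE 0.08) in ATG mice. Aqp5, the water channel of the apical side of alveolar type 1 cells, did not pass, at 0.04 ± 0.08 (adjusted p = 0.69, limma) and 0.10 ± 0.09, with 240.3 to 434 FPKM in room air and 235 to 398 in hyperoxia in saline mice. It thus overlapped between the airs, unlike Sgk1.

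**Figure D4:**
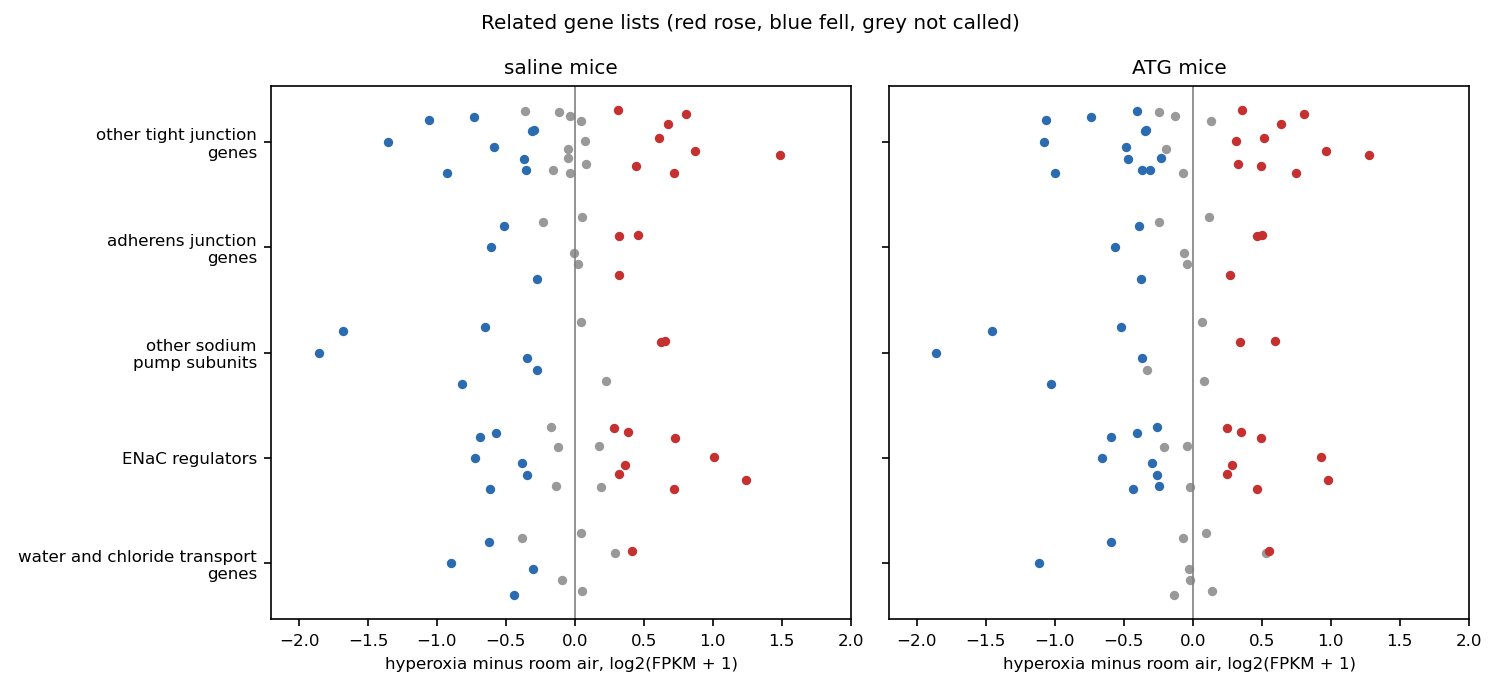
The x axis is hyperoxia minus room air on the log2(FPKM + 1) scale and each point is 1 gene of 1 of the 5 lists, in saline (left) and ATG mice (right). Red points rose, blue points fell and grey points did not pass an adjusted p of 0.05. Both directions occur in every list, with Prkci, the rightmost tight junction gene in saline mice, at 1.49.

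Markers of the cells that carry these genes moved with hyperoxia. Over all genes, 31.8% were called higher and 28.3% lower in saline mice, and 35.8% and 26.0% in ATG mice. Calls in either direction were 37.8% in C3H and 55.5% in C57B saline mice, and 47.9% and 56.2% in ATG mice. No marker used was at 0 in all mice. Of the 7 alveolar type 1 markers tested, 5 fell in saline mice, with a summed level of 3836.5 to 6686 FPKM in room air and 1315.5 to 4504 in hyperoxia in C3H, and of 3084 to 3783.5 and 1908 to 3232 in C57B. Of 8 alveolar type 2 markers 7 fell and 1 rose, and their sums went from medians of 32422 to 15051 in C3H and of 49023 to 11706 in C57B. Over the strains together, club cell markers fell for 3 of 4 and ciliated cell markers for 4 of 5. The club cell sums had medians of 112040 in room air and 13607 in hyperoxia in C57B and of 98614 and 32878 in C3H. The general epithelial markers did not follow this course: 3 of 6 rose and 1 fell, and their sum was 501 to 632 FPKM in room air and 932 to 1986 in hyperoxia in C3H and 454 to 657 and 913 to 1251 in C57B. Keratin 8 (Krt8) rose by 1.99 ± 0.10 (adjusted p = 1.4e-12, limma), while Epcam, at 0.05 ± 0.07, and Cdh1 did not pass in saline mice. By strain, club cell markers fell in 1 of 4 in C3H and 3 of 4 in C57B saline mice. Ciliated cell markers fell in 2 of 5 and 5 of 5. The strain difference in saline mice passed for 3 of 4 club, 2 of 5 ciliated and 2 of 8 type 2 markers. All of these were positive for C3H minus C57B. The difference passed for 0 of 7 type 1 and 0 of 6 general epithelial markers, against 11.5% of all genes. Macrophage markers rose in 5 of 5 and neutrophil markers in 4 of 4 in saline mice over the strains together. Within the strains, neutrophil markers rose in 1 of 4 in C3H and 3 of 4 in C57B saline mice. Macrophage markers rose in 4 of 5 and 5 of 5. In ATG mice macrophage markers rose in 3 of 5 (in C3H 2 rose and 1 fell, in C57B 4 rose), and neutrophil markers rose in 4 of 4 in C3H and 0 of 4 in C57B. In saline mice endothelial markers rose in 1 of 6 and fell in 3, and fibroblast markers rose in 1 of 5 and fell in 1. The neutrophil sums ran from 171 to 6206 FPKM in C3H and from 158 to 4825 in C57B saline mice in hyperoxia, over a far wider range than in room air (131 to 307 and 177 to 763). The medians of these sums in room air and hyperoxia were 183 and 199 FPKM in C3H and 451 and 3035 in C57B. In C57B saline mice the alveolar type 2 sums were 40211 to 59270 FPKM in room air and 8381.5 to 13970 in hyperoxia. The part of cell makeup in the values of the 9 genes was not tested.

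Over the 16 group means, the pattern of each member was compared with that of 16994 genes, as a description over points that share strains, arms and libraries. Cldn4 was most like Odc1 (ornithine decarboxylase; Pearson r = 0.991), Dcaf10 (0.986) and Ddx27 (0.985). Atp1b1 was most like Pex11a (0.980) and Ythdf3 (0.978), Tjp1 like Spock2 (0.966) and Aplp2 (0.963), and Scnn1a like Tcf12 (0.951) and Wwc2 (0.950). Cldn18 was most like Arhgap33 and Lims1 (both 0.939), Scnn1b like Thap2 (0.928), Ocln like Rgl1 (0.926) and Cldn3 like Rprm (0.908). Scnn1g had the loosest match, Epn2 with 0.810. Among the members, Cldn4 ran against Cldn18 (-0.843) and Tjp1 (-0.841) and with Atp1b1 (0.814), and Ocln, Cldn18 and Tjp1 ran together (0.805 to 0.825). Scnn1b and Scnn1g had an r of 0.650, whereas Scnn1a had -0.302 with Scnn1b and 0.191 with Scnn1g.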

How the data were processed

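The authors sequenced polyA-selected lung RNA (2 x 150 bases), mapped it to mm10 with GSNAP, named in the submitters' notes, and SAMtools, and deposited FPKM values from Cufflinks for 48 mice. The annotation release and the handling of strand and of reads with several matches are not given in the sources used here. FPKM are not counts, so no count test was used, the depth is unknown, and precision comes from the spread between mice. No 2 libraries held identical values. Akap5, which had failed estimates, was left out. Groups were taken from the sample labels.

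Log2(FPKM + 1) was fitted by group means with limma 3.58.1 in R 4.3.3 (eBayes with a trend) keeping genes that reached an FPKM of 1 in 3 or more of the mice fitted, with Benjamini-Hochberg adjustment over all these genes and a threshold of 0.05. The fits of saline mice, of saline mice in room air and of all 48 mice were tested on simulated data. These held 200 changed genes, far fewer than were called for hyperoxia. The other fits were not simulated. The members and lists were chosen with earlier results of these data known. All 9 members are named, and of each list some of the extreme and best-known genes; some genes are not reported here. The alternatives tried were quantile normalization, median-ratio scaling, a pseudocount of 0.1, another filter and none, eBayes without trend, all 48 mice in 1 fit, and leaving out mice.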

Additional observations from a re-analysis of the deposited data

Results flagged for a closer look

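The hyperoxia effect on Scnn1a differed between the strains, with C3H minus C57B at -1.24 in saline mice and -1.44 in ATG mice, and that on Scnn1b differed in ATG mice, at 0.76, each by the test of the difference itself.

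Dixon's ratio is the gap of the outermost mouse to its nearest neighbour over the range of its group. It was computed for 72 groups of 6 mice (each gene in each strain, injection and air). Dixon's 95% critical value is passed by chance in about 1 in 20 independent groups of normally distributed values. The groups here join both sexes and the genes share the same mice, so that rate cannot be applied to them. The critical value was passed in 8. Mouse 33, a C3H female given saline in hyperoxia, accounted for 4 of them: it was lowest in Cldn18 (ratio 0.652), Scnn1g (0.804) and Tjp1 (0.757) and highest in Cldn4 (0.681). Cldn3 was highest in mouse 9 (0.663; C3H, saline, hyperoxia) and mouse 11 (0.665; C3H, ATG, hyperoxia). Scnn1a was highest in mouse 42 (0.639; C57B, ATG, room air) and Scnn1b in mouse 24 (0.632; C57B, ATG, hyperoxia).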

How the results depend on the processing

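Depth is unknown for FPKM, and 3 mice per group limit the precision. Of the single-gene values, 924 kept their call under another setting, 28 gained one, 10 lost one and 1 changed sign as well: Cldn3 in ATG mice was lower in hyperoxia after quantile normalization (-0.20, adjusted p = 0.0458). With 1 mouse left out, 2967 kept their call, 41 gained and 16 lost one. Values not called under either setting count as kept, whatever their sign.

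Members called for the strain difference of the hyperoxia effect in saline mice went from 1 to 2 in 1 fit of all 48 mice (1 to 2 with 1 mouse left out). In ATG mice they went from 2 to 1 in the fit of all 48 and to 3 with median ratios (2 to 3 with 1 mouse left out). Hyperoxia in saline mice called 5 members, 7 with quantile normalization, and 5 to 6 with 1 mouse left out, and in ATG mice 6, and 6 to 7. In C57B saline mice the count of 5 became 7 in the fit of all 48 (4 to 6 with 1 mouse left out), and in C57B ATG mice 7 with median ratios (5 to 6). In C3H ATG mice 6 became 5 with quantile normalization, median ratios or all 48 (6 with any 1 mouse left out). For strain in room air the count of 1 became 0 with no filter or without a trend, and 2 with median ratios or in the fit of all 48 (0 to 4 with 1 mouse left out). For sex in room air it went from 0 to 2 in the fit of all 48 (0 to 5 with 1 mouse left out). Further ranges with 1 mouse left out were 2 to 5 for hyperoxia in C3H saline mice (main value 3), 0 to 2 for the sex difference of the hyperoxia effect and 0 to 1 for the difference of the ATG effect. The cause of these changes was not tested. No paired analysis was possible because each mouse has its own number.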
